A study of Ovis aries with 60 samples.

Results

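The genes described here encode ion channels and transporters of the sperm flagellum, read from sperm RNA sequencing of 20 F2 Polypay rams. They are CATSPER1, CATSPER2, CATSPER3, CATSPER4, CATSPERB, CATSPERD, CATSPERG, HVCN1, KCNU1 and SLC9C1, 10 of the 28525 genes in the count table, chosen by name, and all 10 were present. The rams descended from 10 F0 rams, twin brothers of which 5 received a control diet with rumen-protected methionine added at 0.22% (1.5 g) from weaning until puberty and 5 the control diet alone. F1 and F2 animals of both lines were fed control diets, and 1 F1 ram per F0 sire fathered the F2 generation, so that the methionine line and the control line each comprised 10 F2 rams from 5 F0 sires, with 2 rams per sire that shared an F1 father. Semen was collected by electroejaculation, and somatic cells were lysed before RNA extraction. The labels give no ages for these rams, which are named here by the animal number of the sample titles (ramF2_485 and so on).

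CatSper is the calcium channel of the sperm tail. CATSPER1, CATSPER2, CATSPER3 and CATSPER4 form its pore, and CATSPERB, CATSPERD and CATSPERG belong to its auxiliary subunits, without which the channel complex does not assemble normally. Calcium entry through CatSper drives hyperactivated motility, the asymmetric beating with which sperm reach and penetrate the egg. KCNU1 encodes SLO3, a potassium channel of sperm that sets the membrane potential, SLC9C1 a sperm-specific sodium-proton exchanger, and HVCN1 a voltage-gated proton channel that is also used by phagocytes during the oxidative burst. Mature sperm are transcriptionally silent, so their RNA is largely left over from spermatids, the haploid cells that build the tail.

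Library totals ranged from 805831 to 13137757 counts, and the TMM factors, which rescale each library for its composition, from 0.361 to 2.54. These totals are reads counted in genes. Even the highest lay below the lowest number of sequenced reads per RNA library that the paper reports. Besides sperm, the libraries held RNA with markers of other cells. The spermatid and sperm score, the mean log2 CPM (counts scaled to a common library size with TMM) over the 22 measured of 24 marker genes, ran from 2.30 in ramF2_468 to 6.45 in ramF2_485. Among the 15 measured leukocyte markers CYBB was at 0 in 1 library and the rest in none, and their summed level ran from 124 CPM in ramF2_485 to 58158 CPM in ramF2_468. By their mean log2 CPM, the leukocyte score used below, ramF2_468 lay near the median of 5.98 at 6.02, and ramF2_350 was highest at 9.27. The summed levels of 10 squamous and 7 simple epithelium markers spanned 89.5 to 26491 CPM and 52.8 to 11277 CPM. ramF2_382 (methionine line) and ramF2_485 (control line) stood apart, with the highest spermatid scores and the lowest scores of the other 3 lists. The TMM factor itself moved with the spermatid score (Pearson r = 0.74, permutation p = 0.00026 over 20 rams, Spearman rho = 0.73, permutation p = 0.00042, and r = 0.72 without ramF2_468 and ramF2_400). Library totals, as log2, fell with the spermatid score (r = -0.49, permutation p = 0.030, and r = -0.40 without ramF2_413 and ramF2_468). They rose with the simple epithelium score (r = 0.57, permutation p = 0.0061, and r = 0.52 without those rams). Within bulk RNA, fewer cells of a type and less RNA per cell cannot be told apart.

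The first question was whether the F0 diet was reflected in the level of these genes in grandsons. No difference between lines was detectable. CATSPER1 lay at 2.37, 7.37 and 36.0 CPM (lowest, median and highest of 10 rams) in the methionine line and at 2.97, 7.70 and 47.1 CPM in the control line. CATSPER2 lay at 1.47, 6.36 and 12.5 CPM against 2.83, 7.25 and 9.03 CPM. CATSPER4 lay at 10.5, 17.6 and 80.5 CPM against 5.45, 11.7 and 47.0 CPM. The ranges of the lines overlapped for each of these pore subunits.

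Among the auxiliary subunits, CATSPERB lay at 12.4, 27.5 and 242 CPM in the methionine line and at 5.72, 18.8 and 234 CPM in the control line. CATSPERD lay at 16.9, 24.2 and 270 CPM against 13.6, 45.2 and 246 CPM. CATSPERG lay at 27.6, 72.6 and 543 CPM against 21, 61.1 and 296 CPM. The ranges of the lines overlapped for each subunit, and the highest ram of either line lay several times above its median.

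KCNU1 lay at 6.92, 14.8 and 88.5 CPM in the methionine line and at 5.93, 17.4 and 104 CPM in the control line. SLC9C1 lay at 9.18, 16.1 and 169 CPM against 3.03, 19.2 and 185 CPM. HVCN1 lay at 2.09, 5.05 and 21.2 CPM against 2.02, 4.87 and 9.67 CPM. The 2 highest HVCN1 levels, in ramF2_372 and ramF2_426, both belonged to the methionine line, although the medians of the lines were close.

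CATSPER3 was the most sparsely counted pore subunit, with 4 to 84 reads per library. Only 7 libraries reached 15 reads, so CATSPER3 was below the low-count filter (15 or more reads, over 10 libraries), which the other 9 genes passed. It lay at 1.68, 3.09 and 18.2 CPM in the methionine line and at 1.65, 2.61 and 19.9 CPM in the control line. HVCN1 (5 to 101 reads) and CATSPER2 (7 to 48 reads) were also thinly covered, and their values carry a correspondingly large counting error.

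**Figure D1:**
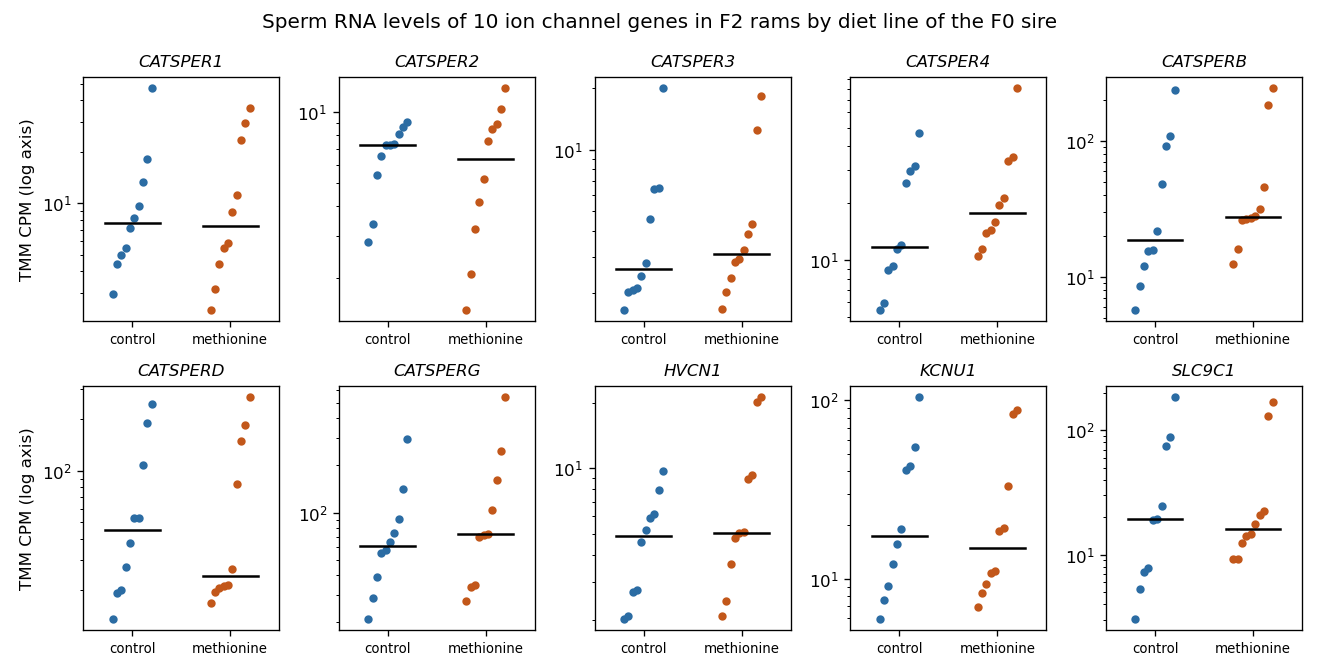
TMM-normalized CPM (log axis, scaled per gene) of each of 10 ion channel genes in the F2 rams of the control line (blue) and the methionine line (orange). Each point is 1 ram (n = 10 per line), the bar is the median, and the lines overlap for all 10 genes.

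None of the 9 tested members was called between lines by edgeR's quasi-likelihood test at a Benjamini-Hochberg adjusted p of 0.05, with 0 of 13577 genes (0%) called over the whole table. At an unadjusted p under 0.05 there were 104 genes and 0 members, and DESeq2 also called 0 genes. The largest member differences, methionine over control, were 0.73 log2 units for HVCN1 (95% interval -0.14 to 1.59, unadjusted p = 0.097) and 0.65 for CATSPERG (-0.53 to 1.84, unadjusted p = 0.27), each with an adjusted p of 0.9998 in edgeR. The difference of CATSPER4 was 0.46 (95% interval -0.45 to 1.38). Without the 4 libraries with a TMM factor under 0.5 or over 2 (ramF2_372, ramF2_400, ramF2_413 and ramF2_468), a setting added after the values were seen, HVCN1 differed by 0.12 and CATSPER4 by 0.78, and with counts summed per sire CATSPER4 differed by 0.75. CATSPER1, CATSPER2, CATSPERB, CATSPERD, KCNU1 and SLC9C1 had differences between -0.11 and 0.18. The intervals ran from -1.0 to 1.17 for CATSPER1 and from -1.52 to 1.43 for SLC9C1, while that of CATSPER2, from -0.78 to 0.64, held no 2-fold difference in either direction. CATSPER3, fitted together with all 27658 genes that had a count, differed by 0.13 (-0.80 to 1.06). The median difference of the 9 members was 0.08, beside -0.05 over all tested genes.

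The rest of the CatSper complex and of the flagellar transport machinery gave the same count. Of 7 further CatSper or KCNU1 partners in the table, 4 were tested and 0 called, and of 13 genes of flagellar ion transport and its signalling 12 were tested and 0 called. Their unadjusted p stayed above 0.05 in every case. CATSPERZ, a small soluble CatSper subunit, differed by 0.21 log2 units (95% interval -1.04 to 1.46), and ADCY10, the bicarbonate-sensitive adenylyl cyclase of sperm, by -0.15 (-1.17 to 0.86).

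The second question was how far these genes followed the amount of spermatid RNA in a library. Of the 9 tested members, 6 rose with the spermatid score and 1 fell, where 28.2% of all tested genes were called higher and 36.2% lower. With upper-quartile factors the all-gene calls were 5679 higher and 3640 lower, and with library size alone 8050 and 1263, against 3830 and 4918 here. The median slope over all genes was -0.05 here, 0.12 with upper-quartile factors and 0.33 with library size alone. A slope is the log2 change of a gene per 1-unit rise of the score, that is per doubling of the average marker. The median slope of the 9 members was 0.89.

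SLC9C1 rose most steeply, by 1.11 log2 units per unit of score (SE 0.13, edgeR adjusted p = 8.6e-08), followed by CATSPERD at 1.09 (SE 0.098, adjusted p = 1.4e-09) and CATSPERB at 1.06 (SE 0.12, adjusted p = 7.7e-08). KCNU1 rose by 0.98 (SE 0.083, adjusted p = 6.5e-10), CATSPER1 by 0.89 (SE 0.082, adjusted p = 2.3e-09) and CATSPERG by 0.85 (SE 0.11, adjusted p = 3.2e-07). The neighbours in this order lay within about 1 SE of each other. Of the 22 markers that make up the score, the 16 tested had a median slope of 1.29 in the same fit (0.46 to 1.45). CATSPER3 had a slope of 0.73 (SE 0.11, edgeR adjusted p = 7e-06) in the fit over 27658 genes. When the counts of the 2 rams of each sire were summed, CATSPERG had a slope of 0.68 with an adjusted p of 0.052 in edgeR, while the other 5 were called in all 8 alternatives.

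The ranks of single rams followed the score closely. For CATSPERB, CATSPERD, KCNU1 and SLC9C1 the 4 highest rams were the 4 with the highest spermatid scores, and for CATSPER1, CATSPER3 and CATSPERG 3 of the 4 were. Over the 20 rams the correlation with the score was strongest for CATSPERD (r = 0.96, rho = 0.97) and KCNU1 (r = 0.96, rho = 0.90). CATSPER1 had r = 0.94, CATSPERG 0.91, CATSPERB 0.89, SLC9C1 0.86 and CATSPER3 0.85. The permutation p of each of these r was at most 2e-05, and the smallest that 100000 resamples can give is 1e-05. Adjusted over 40 relations, members against 4 scores, these values were at most 0.00011. Without ramF2_485 and ramF2_382, the 2 farthest from the median score, the r of the same genes lay between 0.77 and 0.94.

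CATSPER2 followed the score less closely, although it encodes a pore subunit of the same channel. Its slope was 0.26 (SE 0.12, edgeR adjusted p = 0.062), with r = 0.44 (permutation p = 0.05, adjusted 0.061) and rho = 0.50 (permutation p = 0.028, adjusted 0.035). Its level varied only 8.53-fold between the lowest and the highest ram, where CATSPERB varied 42.2-fold and SLC9C1 61.0-fold. Without ramF2_485 and ramF2_382 its r was 0.32 (permutation p = 0.2). The call depended on scaling: the slope was 0.42 (adjusted p = 0.0042) with upper-quartile factors and 0.59 (adjusted p = 4.4e-05) with library size alone, both in edgeR, while relative to the median gene it was 0.31 here, 0.30 and 0.26.

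**Figure D2:**
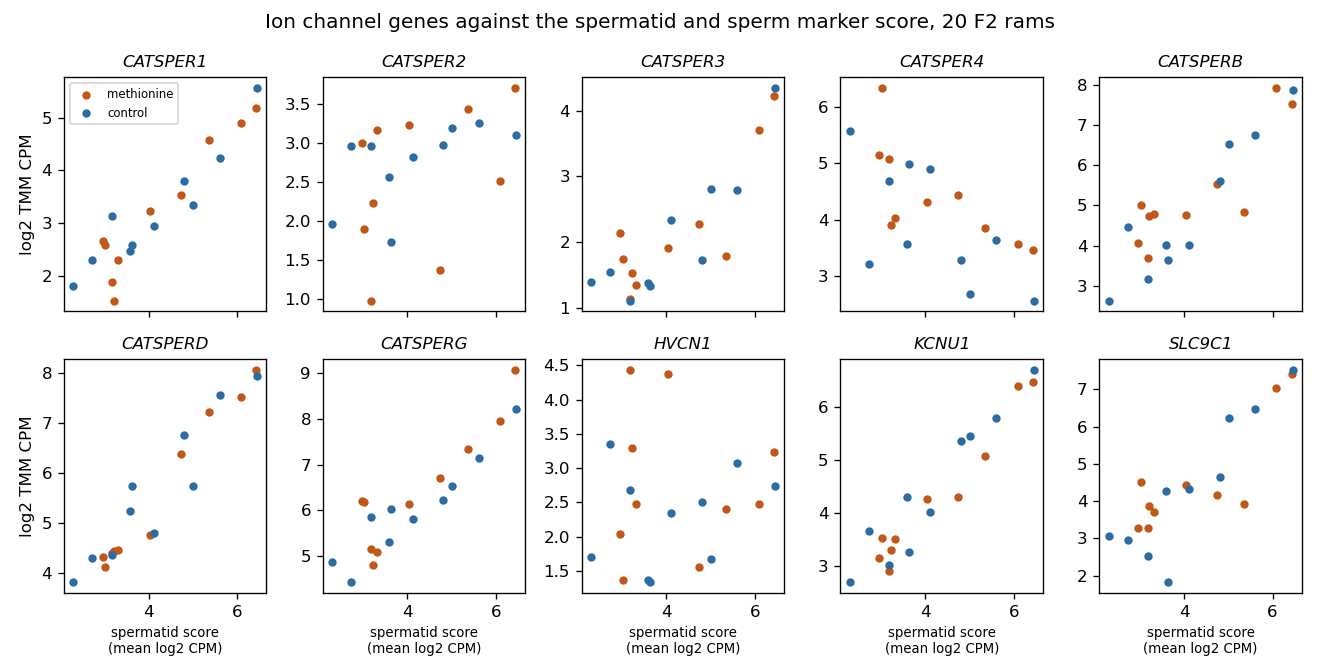
Log2 TMM CPM of each ion channel gene against the spermatid and sperm marker score (mean log2 CPM of 22 markers), 1 point per ram, orange for the methionine line and blue for the control line (n = 20). The panels of CATSPER1, CATSPER3, CATSPERB, CATSPERD, CATSPERG, KCNU1 and SLC9C1 rise with the score (r from 0.85 to 0.96), CATSPER2 and HVCN1 spread widely and CATSPER4 declines (r = -0.64).

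CATSPER4 went the other way. It was highest in ramF2_323 (80.5 CPM), ramF2_468 (47.0 CPM) and ramF2_480, whose spermatid scores of 3.02, 2.30 and 2.97 were among the lowest, and lowest in ramF2_485 (5.45 CPM), whose score was the highest. It was also low in ramF2_350 (8.87 CPM), with a score of 2.73. It fell by 0.58 log2 units per unit of score (SE 0.14, edgeR adjusted p = 0.00091), with r = -0.64 (permutation p = 0.0023, adjusted 0.0039) and rho = -0.64 (permutation p = 0.0028, adjusted 0.0066), and r = -0.55 without ramF2_485 and ramF2_382. Its slope stayed negative in all 8 alternatives but lost its call with library size alone (-0.05, edgeR adjusted p = 0.66), a scaling under which the median gene had a slope of 0.33. Relative to the median gene the CATSPER4 slope was -0.52, and -0.38 with library size alone.

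The level of CATSPER4 rose with epithelial markers. The spermatid score was itself negatively related to the squamous (r = -0.73) and simple epithelium scores (r = -0.71). Without ramF2_485 and ramF2_382 these were -0.54 and -0.50. No epithelial fit at an equal spermatid score was run, so these relations of CATSPER4 cannot be told apart here. The fits on the epithelial scores were added after the values were seen. The marker lists were uneven. Of 7 tested squamous markers, 4 were called higher on the score to which they contribute (slopes -0.52 to 2.86). Of 6 tested simple epithelium markers 5 were (0.086 to 1.98). On the spermatid score, 1 squamous marker was called higher and 5 lower. The slope of CATSPER4 was 0.63 on the simple epithelium score (SE 0.14, edgeR adjusted p = 0.00098) and 0.99 on the squamous score (SE 0.21, edgeR adjusted p = 0.0014). Among the 9 members it was the one called higher on each, where 27.9% and 11.6% of all genes were, while 7 and 6 members were called lower (27.9% and 17.3% of all genes). The correlation of CATSPER4 was r = 0.70 and rho = 0.80 with the simple epithelium score and r = 0.73 and rho = 0.75 with the squamous score (permutation p = 0.00045, 5e-05, 0.00018 and 0.00025, at most 0.0011 when adjusted). Without the 2 farthest rams it was 0.74 for the simple epithelium score and 0.54 for the squamous score. For the members called lower on the simple epithelium score, r without ramF2_485 and ramF2_382 lay between -0.56 and -0.23, with CATSPERG going from -0.65 to -0.23 (permutation p = 0.36), CATSPERD from -0.63 to -0.34 (permutation p = 0.17) and CATSPER1 from -0.72 to -0.43 (permutation p = 0.071). With library size alone neither slope was called, at 0.44 (adjusted p = 0.25) and 0.68 (adjusted p = 0.07) in edgeR, and 0 members were then called in either direction on either score. Over all genes that scaling called 140 higher and 6 lower on the simple epithelium score and 253 higher and 0 lower on the squamous score, where 2409 had an unadjusted p under 0.05.

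Of all tested genes, the one whose pattern over the 20 rams was most like that of CATSPER4 was CNKSR1, a scaffold protein of the RAS pathway, with r = 0.93, followed by CBLC (0.92) and NUCB1 (0.92). CNKSR1 is also the next named gene on one side of CATSPER4 in the RefSeq annotation of ARS-UI_Ramb_v3.0, an assembly newer than the one used for counting. On that side LOC132659352, which is not in the count table, overlaps CATSPER4. CNKSR1 itself correlated with the squamous (r = 0.83), simple epithelium (0.76) and spermatid (-0.76) scores, beside 0.73, 0.70 and -0.64 for CATSPER4. CNKSR1 ranged from 8.29 to 183 CPM with a median of 39.1, and the ratio of CATSPER4 to CNKSR1 reads stayed between 0.27 and 0.74 while CATSPER4 itself spanned 14.8-fold. On the other side, SH3BGRL3 correlated with CATSPER4 at r = 0.82 and CEP85 at r = 0.59. The strand setting of the counting is not given in the sources used here, and whether reads of neighbouring transcripts entered the CATSPER4 count was not tested.

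**Figure D3:**
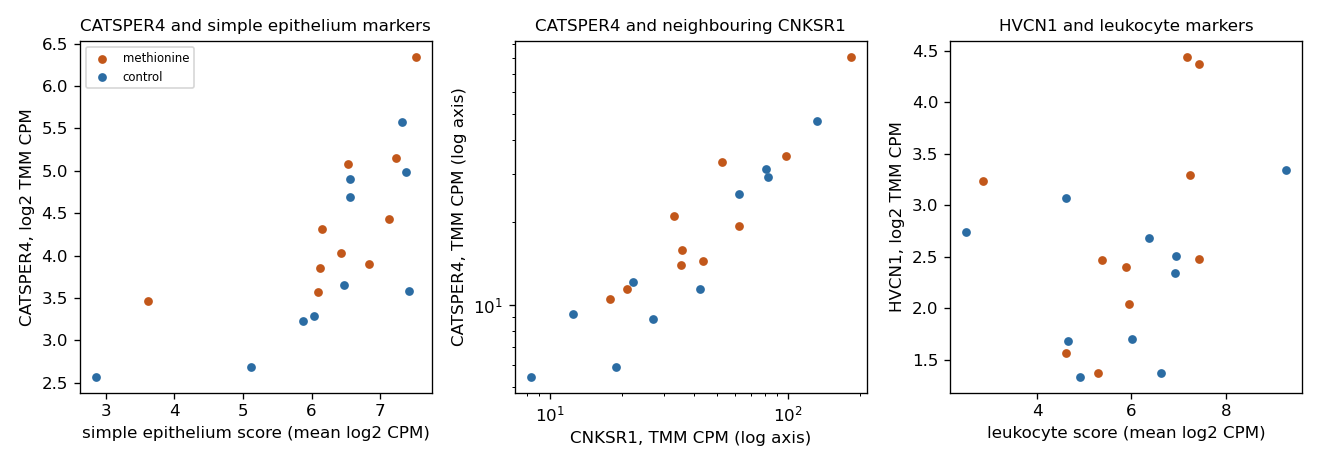
Left, CATSPER4 (log2 TMM CPM) against the simple epithelium score. Middle, CATSPER4 against CNKSR1, both in TMM CPM on log axes, with r = 0.93 on log2 values. Right, HVCN1 (log2 TMM CPM) against the leukocyte score, where the 2 highest rams lie above a leukocyte score of 7 but the 2 rams with the lowest leukocyte score, ramF2_382 and ramF2_485, are not among the lowest in HVCN1. Points are 20 F2 rams, orange for the methionine line and blue for the control line.

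HVCN1 was not called on the spermatid score. Its slope was -0.04 (SE 0.17, edgeR adjusted p = 0.86), and relative to the median gene 0.018, 0.019 with upper-quartile factors and 0.0086 with library size alone. The slope itself was 0.34 with library size alone, where it was called. With counts summed per sire it was 0.66, and 0.65 relative to the median gene. The correlation r was 0.09 (permutation p = 0.71). HVCN1 was highest in ramF2_372 (21.2 CPM), ramF2_426 and ramF2_350, which carried leukocyte scores of 7.17, 7.44 and 9.27 against a median of 5.98, yet it also reached 3.23 log2 CPM in ramF2_382 with a leukocyte score of 2.86. Its slope on the leukocyte score was 0.19 (SE 0.12, edgeR adjusted p = 0.24), with r = 0.30 (permutation p = 0.19, adjusted 0.22) and rho = 0.40 (permutation p = 0.085, adjusted 0.097). The genes it resembled most were WDR75 (r = 0.79), ELMSAN1 (0.78) and RTN4RL2 (0.77), lower values than the nearest genes of any other member.

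At an equal spermatid score, 0 of the 9 members were called with the leukocyte score by edgeR, where 7.53% of genes were called higher and 2.4% lower, and 3 members had an unadjusted p under 0.05, as did 2924 of the 13577 genes. HVCN1 had a slope of 0.48 (SE 0.18, unadjusted p = 0.016, edgeR adjusted p = 0.11), CATSPERG of -0.30 (SE 0.11, unadjusted p = 0.012, adjusted p = 0.093) and CATSPER4 of -0.32 (SE 0.13, unadjusted p = 0.023, adjusted p = 0.14). With the summed marker level as the score the HVCN1 slope was -0.05.

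The members that rose with the spermatid score were lower where leukocyte RNA was high. CATSPER1, CATSPERB, CATSPERD, CATSPERG, KCNU1 and SLC9C1, 6 of 9, fell with the leukocyte score by 0.51 to 0.74 log2 units per unit (17% of all genes were called lower and 12% higher), and 0 members rose. The steepest was SLC9C1 at -0.74 (SE 0.14, edgeR adjusted p = 0.00037). The 2 scores themselves were negatively related (r = -0.69, permutation p = 0.00065, rho = -0.59, permutation p = 0.0079, and r = -0.49 without ramF2_485 and ramF2_382). Without ramF2_382 and ramF2_485 only CATSPERG of these was still called, with slopes of -0.41 to -0.68 for the 6 genes, and with library size alone 0 were, with slopes of -0.42 to -0.75. Over all genes the lower calls went from 2304 to 175 and 65 in these settings. With counts summed over the 2 rams of each sire 0 were called and the sign turned for each of the 6 genes. The permutation tests and fits treat the 20 rams as independent, although pairs of rams share an F1 father.

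Of the 4 tested partners of the channel, 2 rose with the spermatid score, 1 fell and 1 was not called, beside 28.2% of all genes higher and 36.2% lower. CATSPERZ rose with the spermatid score by 1.02 log2 units (SE 0.094, edgeR adjusted p = 2.3e-09), and C2CD6, a CatSper-associated protein needed for its placement in the tail, by 0.84 (SE 0.095, adjusted p = 6.7e-08). EFCAB9, the calcium sensor that pairs with CATSPERZ, fell by 0.27 (SE 0.097, edgeR adjusted p = 0.018), and TMEM262 had a slope of 0.22 (SE 0.11, adjusted p = 0.082). CATSPERE (0 to 14 reads), TMEM249 (1 to 60) and LRRC52 (1 to 50), the last an auxiliary subunit of SLO3, were too thinly counted for the fit.

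Of the 12 tested genes of flagellar ion transport and signalling, 5 rose with the spermatid score, 3 fell and 4 were not called, against the same shares of all genes. SLC9B1 (1.10, SE 0.096) and SLC9C2 (1.04, SE 0.12), relatives of SLC9C1 among the sodium-proton exchangers, rose at slopes close to its own, and ADCY10, which works beside SLC9C1 in sperm, rose by 0.74 (SE 0.097, edgeR adjusted p = 5.9e-07). SLC26A8, an anion transporter of the sperm annulus, rose by 0.39 (SE 0.12, adjusted p = 0.0076) and SLC9B2 by 0.33 (SE 0.12, adjusted p = 0.019). CFTR, the epithelial chloride and bicarbonate channel, fell by 0.92 (SE 0.22, edgeR adjusted p = 0.00095), PRKAR1A by 0.55 and ABHD2, a progesterone-responsive hydrolase that acts upstream of CatSper in sperm, by 0.47. ATP2B4, PRKACA, SLC26A3 and SLC9A8 were not called. The slopes of partner and transport genes are given with TMM factors alone. With library size alone the median gene had a slope of 0.33 and 1263 genes were called lower, so the falls may depend on scaling.

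The third question was how these genes varied together. Over the 45 pairs, 23 were positively and 7 negatively correlated at an adjusted permutation p of 0.05. The share among pairs of all tested genes was not computed. Of the 13577 tested genes, 8748 were called on the spermatid score, so these counts are not shown to be particular to the members. The 7 genes CATSPER1, CATSPER3, CATSPERB, CATSPERD, CATSPERG, KCNU1 and SLC9C1, grouped after the values were seen, were correlated in all 21 pairs, with r from 0.75 to 0.94 and a median of 0.87. The closest pair was CATSPER1 and CATSPERG (r = 0.94, rho = 0.94), followed by CATSPERB and SLC9C1 (r = 0.93, rho = 0.87) and CATSPERB and KCNU1 (r = 0.93, rho = 0.89), each with an adjusted permutation p of 4.1e-05 and r of 0.92, 0.89 and 0.89 without the 2 farthest rams. CATSPER2 was correlated with CATSPER1 (r = 0.52, rho = 0.55, adjusted permutation p = 0.028) and KCNU1 (r = 0.53, rho = 0.55, adjusted permutation p = 0.026) but with no other of the 7. HVCN1 was within 0.2 of zero with 8 of the 9 other genes and at r = -0.20 with CATSPER4, and none of its pairs passed the test. CATSPER4 was negatively correlated with 7 genes, most with KCNU1 (r = -0.73, rho = -0.79, adjusted permutation p = 0.00059), and its r with CATSPERG (-0.37) and HVCN1 did not pass.

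How much of this shared variation went with the spermatid score depended on how the score was taken out. When the linear dependence on the score was removed, an alternative added after the values were seen, 6 of the 45 pairs were correlated and the median r went from 0.52 to 0.02. Expressed relative to the summed CPM of the spermatid list, a denominator that all members share, 25 pairs were positively correlated with a median r of 0.57, 10 of them among the 21 pairs of the 7 genes. Of the 6 pairs on residuals, 4 joined SLC9C1, CATSPERB, CATSPER3 and KCNU1 among themselves: CATSPERB with SLC9C1 (r = 0.72, adjusted permutation p = 0.014), CATSPER3 with SLC9C1 (r = 0.66, adjusted permutation p = 0.019), KCNU1 with SLC9C1 (r = 0.64, adjusted permutation p = 0.019) and CATSPERB with KCNU1 (r = 0.59, adjusted permutation p = 0.046). The other 2 joined CATSPERG with CATSPER1 (r = 0.60, adjusted permutation p = 0.046) and with CATSPER4 (r = 0.68, adjusted permutation p = 0.018). Without the 2 farthest rams of each pair, r of these 6 pairs lay between 0.53 and 0.69. CATSPERB with SLC9C1 was then at 0.55 and CATSPERG with CATSPER4 at 0.55, while KCNU1 with SLC9C1 was at 0.69. By Spearman's rho the pair of CATSPERB and KCNU1 missed the threshold (rho = 0.54, adjusted permutation p = 0.1). CATSPERD, the gene most tightly tied to the score, had no such partner. Its residuals had r = -0.47 with those of SLC9C1, which did not pass (adjusted permutation p = 0.17), and r = -0.22 without ramF2_400 and ramF2_413.

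**Figure D4:**
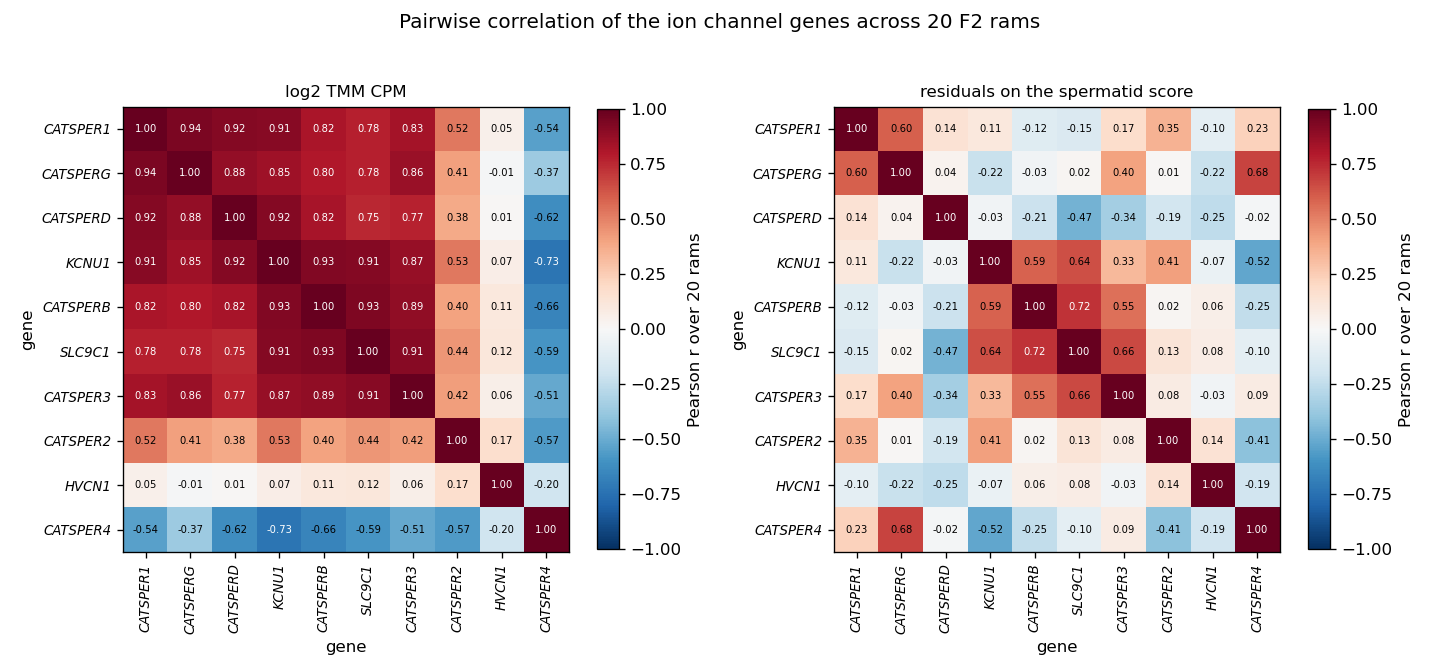
Pearson r over 20 F2 rams for each pair of ion channel genes, on the log2 TMM CPM scale (left) and on the residuals after a linear fit on the spermatid score (right), red for positive and blue for negative values. On the left 7 genes form a block with r from 0.75 to 0.94, and on the right the highest values are CATSPERB with SLC9C1 at 0.72 and CATSPERG with CATSPER4 at 0.68, while CATSPER3 with KCNU1 is at 0.33.

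Among all 13577 genes, the ones most like each member over the 20 rams, by Pearson r of log2 CPM, reached r above 0.93 for all 3 genes of 7 of the 10 members. For KCNU1 these were LRRC36 (0.99), LOC101113819 (0.98) and TMC3 (0.98), and for CATSPERD they were SCMH1 (0.98), CSPP1 (0.98) and MYO3B (0.98). SLC9C1 was most like LRRC9 (0.98), SLC38A6 (0.97) and TRIM59 (0.97), CATSPER1 like LOC101115931 (0.98), LOC101118398 (0.97) and PLCD4 (0.97), and CATSPERB like LOC101119791 (0.97), LOC105605237 (0.97) and ZBBX (0.96). CATSPERG was most like FAM71E2 (0.96), CBARP (0.95) and RNASEH2A (0.95), and CATSPER3 like LNPK (0.94), FAM186A (0.94) and PROCA1 (0.93). CATSPER2 was most like COL4A1 (0.93), LOC114113995 (0.93) and LOC114109389 (0.92). None of the 10 genes had another of the 10 among its 3 nearest. These genes were picked as the highest of all tested, so no test is attached to their r.

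CATSPER3 is the only member that the text of the paper names for a cytosine altered in all generations. The authors' full lists of differing cytosines were not searched for the other members here. The cytosine lies on chromosome 5 at position 48477588 of the plus strand (Oar_rambouillet_v1.0), in CHH context (H being any base but G), inside a LINE element (HAL1M8) and, as annotated by the authors, in an intron and the promoter region of CATSPER3. In another listing of the authors the same cytosine is assigned to PCBD2, the gene beside CATSPER3, as lying downstream of it. There the paper reports its level as correlated with PCBD2 expression in F2 sperm. The paper's p threshold for that correlation was more lenient than the adjusted one used here, and the paper mentions no adjustment of it for multiple tests. The paper describes the cytosines of that correlation analysis as keeping the same methylation pattern in every generation. It also states that not all cytosines shared by the generations kept their direction, in CHH context as well. The authors chose it for a difference between lines in each generation, so its levels are given as a description. Methylation was read by whole-genome bisulfite sequencing of sperm DNA, with 18 to 85 reads at this position per library.

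In F0, the 5 rams without the supplement had levels of 0 to 2.38%. Of the 5 supplemented rams, sire 9 had 45.5% (25 of 55 reads, 95% Wilson interval 33.0 to 58.5) and sire 23 had 53.1% (26 of 49 reads, 39.4 to 66.3), and sires 3, 5 and 11 had 0, 2.44 and 0%. In the F1 pools of offspring, those of sires 9, 23 and 3 had 47.1, 20.4 and 19.1%, and the other 7 pools had at most 4.08%. The mean was 20.2% ± 26.7 (SD, n = 5) in supplemented F0 rams against 1.33% ± 1.22, and 17.3% ± 19.3 in F1 methionine pools against 1.14% ± 1.79. The differences thus came from 2 rams and 3 pools.

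In F2 the pattern turned. Among the 10 rams of the methionine line only ramF2_372, from sire 9, lay above 10%, with 70.8% (17 of 24 reads, 95% Wilson interval 50.8 to 85.1), while ramF2_382 from the same sire had 0 of 36 reads. The others were at 0 to 2.17%, and 0 of 70 reads in ramF2_329 and 0 of 28 in ramF2_320 have 95% Wilson upper limits of 5.20% and 12.1% (4.29% and 10.7% by the limit of 3 reads over the depth). In the control line 7 of 10 rams lay between 44.2% and 81.0%, among them both rams from F0 sires 10, 12 and 24. Those F0 rams, their grandsires, had been at 2.08 to 2.38%, and the F1 pools do not show the fathers singly. The group means were 7.30% ± 22.3 in the methionine line and 39.6% ± 28.7 in the control line (SD, n = 10). No F2 ram lay between 2.17% and 44.2%. Intervals cover counting error only.

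**Figure D5:**
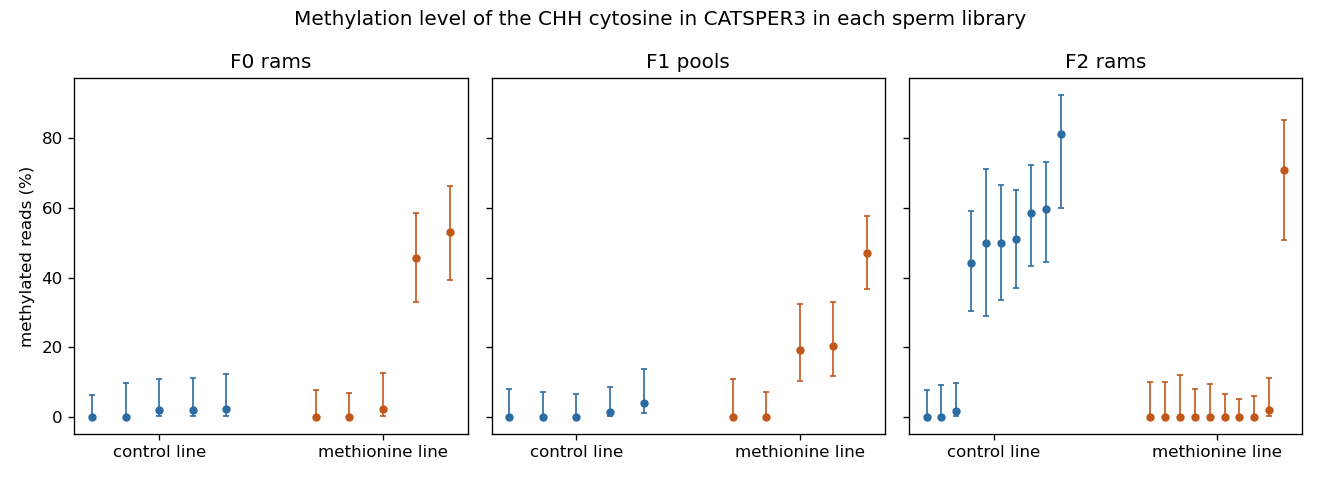
Percent of methylated reads at the CHH cytosine in CATSPER3 in each sperm library of the F0 rams, F1 pools and F2 rams, with 95% Wilson intervals, for the control line (blue) and the methionine line (orange). Levels above 10% occur in 2 supplemented F0 rams, 3 methionine F1 pools, 1 F2 ram of the methionine line and 7 of the control line.

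The other listed CHH cytosines within 500 bases behaved differently from this position. In F2 there were 58 of them with levels pooled over the 20 rams of 0 to 1.26% (median 0.45%), and in F0 63 with 0 to 1.09%. In F1, 1 of 69 reached 13%. Because the F2 levels fell into separate groups with a gap of 42.0 points, the relation to CATSPER3 or PCBD2 RNA was not analysed here. Bisulfite reads do not separate an unmethylated C from a T in the genome. Whether the rams differed in sequence at this position, or at the next bases, which set its CHH context, was not tested.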

How the data were processed

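Sperm RNA of 20 F2 rams (10 per line) and sperm DNA of 40 samples (10 from F0, 10 pools from F1, 20 from F2) were sequenced. For RNA, the authors trimmed single-end reads with Trimmomatic and counted them per gene with STAR against Oar_rambouillet_v1.0, and the deposited values are raw counts. For methylation, the authors aligned reads with Bismark and deposited counts of covering and methylated reads per cytosine with at least 10 reads in all samples. The 40 columns of unmethylated reads in the CHH tables, and the CG and CHG tables, were not used.

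Counts were fitted with edgeR 4.0.16 (TMM, quasi-likelihood test, Benjamini-Hochberg) on the 13577 genes for which over 10 libraries reached 15 counts, by line or on marker scores. DESeq2 1.42.0 was an alternative. The paper reports more genes passing the same count filter. The tests were tested on simulated data. A score is the mean log2 CPM (prior count 2) of a marker list. Log2 CPM values were correlated with 100000 permutations. The genes and lists were chosen with earlier results of these data known. Named genes were all members, the 3 genes most correlated with each, the 7 partners in the table, the 12 tested transport and signalling genes, and some of the chromosomal neighbours. Replicates are rams, 2 per F1 father. Apart from the ratio of CATSPER4 to CNKSR1 reads, levels were not compared between genes, since no lengths of the counted build were at hand. Of the member loci only the CATSPER3 cytosine and its surroundings were read from the methylation tables.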

Additional observations from a re-analysis of the deposited data

Results flagged for a closer look

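Of 30 groups of 5 or 10 samples examined for a sample far from the others, 2 held one, and chance alone flags about 1 in 20 groups. In the control line, ramF2_485 had a CATSPER3 level of 4.35 log2 CPM, and the next ram had 2.80. The same ram had the highest spermatid score of the 20. In the F2 methionine line, ramF2_372 had 70.8% methylation at the CATSPER3 cytosine, and the next ram had 2.17%.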

How the results depend on the processing

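The diet comparison gave 0 called genes in all 9 alternatives, with adjusted p from 0.9997 to 1 for the members, and their small differences changed sign in 16 of 81 values. With upper-quartile factors CATSPER1 differed by -0.030 and CATSPERB by -0.047, with all genes of at least 1 count SLC9C1 by 0.017, and with counts summed per sire CATSPER1 by -0.090 and CATSPERD by -0.18. With the spermatid score as covariate CATSPER1, CATSPERD and SLC9C1 differed by -0.053, -0.21 and 0.083, and with the spermatid list as library size by -0.16, -0.27 and 0.018. With consecutive F0 sire numbers as a block CATSPERD and SLC9C1 differed by -0.0035 and 0.067, without the 4 libraries with a TMM factor under 0.5 or over 2 CATSPER1 and CATSPERD by -0.084 and -0.075, and with library size alone CATSPERB by -0.15. The median difference over all genes went from -0.05 to -0.23 with the spermatid list as library size. Library size alone, the settings without named libraries and the residuals below were chosen after seeing the data.

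On the spermatid score, HVCN1 turned to 0.14 with upper-quartile factors, 0.66 with counts summed per sire, 0.037 without the 4 libraries and 0.34 with library size alone (edgeR adjusted p = 0.023), where 0 members were called lower. On the leukocyte score, 0 members were called lower with counts summed per sire or with library size alone (slopes of the 6 genes -0.42 to -0.75), 1 without ramF2_382 and ramF2_485 (-0.41 to -0.68), and with summed CPM as the score 1 was called higher. Summed per sire, the slopes were CATSPER1 0.52, CATSPER2 0.077, CATSPER4 -0.91, CATSPERB 0.77, CATSPERD 0.23, CATSPERG 0.31, KCNU1 0.64 and SLC9C1 0.73. CATSPER4 also turned, to -0.040 with upper-quartile factors, -0.0084 without the 4 libraries, -0.26 without ramF2_382 and ramF2_485 and -0.030 with library size alone, and CATSPER2 to 0.083 without those rams and 0.0022 with library size alone. At an equal spermatid score, summed CPM scores turned CATSPER2 to -0.31, CATSPER4 to 0.11, CATSPERB to -0.20, CATSPERD to 0.060, HVCN1 to -0.051 and KCNU1 to -0.14, and upper-quartile factors turned CATSPER1 to 0.0064. With library size alone 0 members were called in either direction on the squamous or simple epithelium score, and CATSPER2 and HVCN1 turned to 0.64 and 0.014 on the squamous score. Over all genes, calls went from 8748 to 1900 on the spermatid score and from 3927 to 407 on the leukocyte score with counts summed per sire. On the leukocyte score they were 9266 with summed CPM, 1355 without those rams and 1028 with library size alone, at an equal spermatid score 3254 with summed CPM against 1348, on the squamous score 1465 with upper-quartile factors and 253 with library size alone against 3916, and on the simple score 146 with library size alone against 7571.

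Of the 45 pairs, 7 were negatively correlated, and 3 with upper-quartile factors, 0 relative to the spermatid list and 0 on residuals, where 6 were positive against 23 (25 relative to the list). Relative to the spermatid list all members share a denominator. Leaving out each F0 ram or F1 pool in turn gave differences at the CATSPER3 cytosine of 10.6 to 23.9 points in F0 (main value 18.9) and 8.74 to 20.5 in F1 (main value 16.2), lowest without sire 23 and pool 9. In each case the cause was not tested. The planned comparison of mean CG methylation over member loci, with its alternatives, was not run. The block above pairs F0 sires by consecutive number, since the labels do not say which were twins. Depth limits CATSPER3, HVCN1 and CATSPER2 most.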

Other observations

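The 2 rams of a sire were closer to each other than other rams for 5 of the 10 genes and farther apart for the other 5. The median difference between the 10 pairs of rams with a common sire was 2.26 log2 units for CATSPERD and 1.24 for CATSPER1, beside 1.42 and 1.11 over the 180 other pairs. For CATSPERB it was 0.85 beside 1.50, and for SLC9C1 1.2 beside 1.46. The spermatid score differed by 1.54 and 1.32. These differences were not tested.

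Neighbouring genes, by their order on ARS-UI_Ramb_v3.0, differed in how far they moved with a member. CATSPER2 correlated with STRC, the gene beside it, at r = 0.80 over the 20 rams. CATSPERD overlaps LONP1, a mitochondrial protease, with r = 0.63, and HVCN1 overlaps TCTN1, a gene of the ciliary transition zone, with r = 0.44. PITX1, beside CATSPER3, had r = -0.83, and CD200, beside SLC9C1, -0.17. These neighbours are examples, and further ones went either way, such as PRR22 beside CATSPERD (0.87) and PDIA3 beside CATSPER2 (-0.70). Whether overlapping transcripts share reads in these counts was not tested.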
